A study of Mus musculus with 141 samples.

Results

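Gene expression in subcutaneous (inguinal) adipose tissue was compared between 2 panels of recombinant inbred mice of the Hybrid Mouse Diversity Panel, the CXB and the BXD strains. Libraries were chosen by the strain name in the sample label, and 70 libraries of 41 of the 82 strains of the series took part: 6 of the 3 strains CXB6/ByJ, CXB11/HiAJ and CXB13/HiAJ, and 64 of 38 BXD strains. Each CXB strain had 1 female and 1 male library, 26 BXD strains had both sexes, and 12 BXD strains had 1 library. Of the BXD strains, 23 carried the RwwJ suffix and 14 the TyJ suffix, and 1, BXD24/TyJ-Cep290<rd16>/J, carried in addition the rd16 allele of Cep290, a gene of the cilium in which that allele is known for retinal degeneration; it was grouped with the TyJ strains, and without it 62 genes were called, 61 of them the same. Libraries of BALB/cJ, C57BL/6J and DBA/2J, 1 per sex, served as parental reference and entered no test. Mouse numbers 443 and 886, both BXD females, were left out. All groups shared the high-fat, high-sucrose (HF/HS) feeding that preceded tissue collection. By the paper's design it followed chow, started at 1 set age and lasted 1 set time. The labels give neither the age of a single mouse nor its litter.

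Recombinant inbred strains are made by crossing a pair of inbred strains and then inbreeding the descendants, so that every strain is a fixed mosaic of both parental genomes. The CXB strains descend from BALB/c and C57BL/6By, and the BXD strains from C57BL/6J and DBA/2J. At any locus a CXB strain therefore carries a BALB/c or a C57BL/6 allele and a BXD strain a C57BL/6 or a DBA/2 allele, and each panel is known for mapping the loci behind variable traits. A strain is a genotype and not a cell line or a clone, and a panel of 3 strains samples each BALB/c allele unevenly.

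Because the female and the male of a strain share its genome, the strain was the replicate, with n = 3 CXB and n = 38 BXD strains. Total counts ranged from 20785244 to 29353013 in CXB females, from 30976798 to 78562648 in CXB males, from 12057946 to 35797106 in BXD females and from 22912977 to 46602779 in BXD males. A floor of 3 counts corresponded to between 0.0382 and 0.249 counts-per-million (CPM), which covers counting error only. CPM were scaled separately for strains and for single libraries, so a strain's level need not lie between those of its 2 mice. The male CXB11/HiAJ library stood apart. It had the most counts of the libraries compared, and 25.1% of them fell on mitochondrially encoded genes, against 4.72% to 15.6% in BXD males. The female CXB11/HiAJ library, with 15.3%, lay within the BXD female range of 5.46% to 25.8%. For the named called genes and the metabolic and adipocyte gene lists that rest on this strain, results are given with and without it. Single genes that were not called are given with it only. The libraries of BXD6/TyJ, BXD15/TyJ, BXD27/TyJ and BXD36/TyJ held counts at features that BALB/cJ had and both BXD parents lacked, which the labels do not account for. Whether RNA of another strain was mixed in was not tested. These 4 strains had the highest BXD level for 22 of the 47 genes that were higher in CXB, or 18 of 43 with features of identical values in every strain counted once. Each of the 4 strains had only 1 library. The same share over all genes tested was not counted, so these counts cannot be read as an excess. Adipocyte markers were abundant in every strain: Adipoq, the adiponectin gene, was at 1760 CPM in CXB6/ByJ, 2478 in CXB11/HiAJ and 2517 in CXB13/HiAJ, and between 956 and 3170 CPM in the BXD strains.

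Of 20001 genes tested, 62 differed between the panels at an adjusted p under 0.05, which is 0.310%. In CXB, 47 genes (0.235%) were higher and 15 (0.0750%) were lower. With features of identical values in every strain counted once, these were 43 and 14. The median log2 fold change (log2FC, CXB minus BXD) over all genes was -0.01. Scaling by library totals gave 24 higher and 21 lower with a median of -0.15, DESeq2 gave 55 higher and 83 lower, and limma on log2(TPM + 1) gave 14 higher and 20 lower, so the balance of directions depended on the scaling and the tool. The called genes are described in 3 main kinds. The first differed in all 3 CXB strains, the second were pseudogenes and other copies whose counts mostly followed the BALB/cJ library, and the third rested mainly on 1 CXB strain. These kinds do not cover every call. In 17 higher genes, copies among them, and in 7 lower genes, 2 CXB strains were beyond the BXD range. By annotation, 44 called genes were protein coding, of 17597 tested, and 13 were processed pseudogenes, of 1266 tested, all of them higher in CXB; 5 of these 13 are copies with the same sequence and the same counts, and counted once they leave 9.

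**Figure D1:**
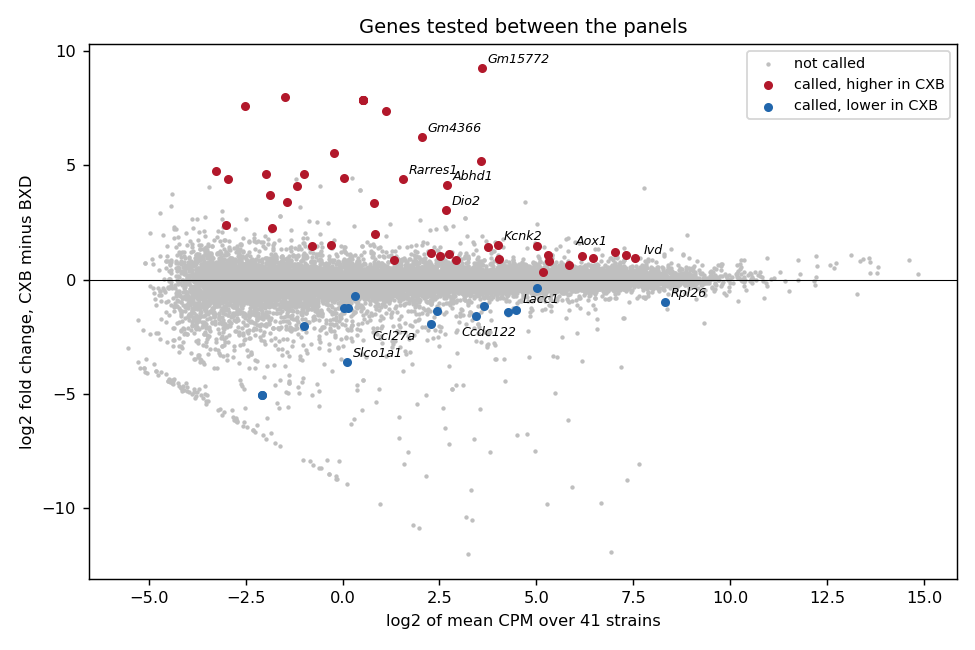
Log2 fold change (CXB minus BXD) of each gene tested against the log2 of its mean CPM over the 41 strains. Red points are the 47 genes called higher and blue points the 15 called lower; the highest red point is Gm15772, at 9.25.

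Rarres1, a retinoid-responsive gene, was higher in every CXB strain than in any BXD strain. It was at 18.9 CPM in CXB6/ByJ, 31.7 in CXB11/HiAJ and 26.8 in CXB13/HiAJ. The 38 BXD strains ranged from 0.171 to 3.47 CPM with a median of 0.921. BALB/cJ had 37.3 CPM, C57BL/6J 1.45 and DBA/2J 0.474. The CXB strains thus sat beside BALB/cJ and apart from both other parents. The log2FC was 4.41 ± 0.42 (SE, adjusted p = 6e-10), 4.05 in females alone and 4.77 in males alone, and between 4.31 and 4.56 with any 1 CXB strain left out. Rarres1 lies at chr3:67478972-67515523 (GRCm38, minus strand) and none of the 31-base words in its transcripts occurs in another gene.

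Abhd1, which encodes a member of the alpha/beta hydrolase family, showed the same separation; it is annotated as a processed transcript and was named after its values were seen. Its level was 20.5 CPM in CXB6/ByJ, 115 in CXB11/HiAJ and 19.3 in CXB13/HiAJ. The BXD strains lay between 1.98 and 4.57 CPM, with a median of 2.75. BALB/cJ was at 21.96 CPM, C57BL/6J at 3.37 and DBA/2J at 3.54. CXB6/ByJ and CXB13/HiAJ were thus at the BALB/cJ level and CXB11/HiAJ above it in both sexes, with 80.9 CPM in the female and 120 in the male. The log2FC was 4.14 ± 0.18 (adjusted p = 9.8e-21) and 2.80 without CXB11/HiAJ. Abhd1 (chr5:30950066-30955091, plus strand) overlaps Preb on the opposite strand, and 75.9% of its 31-base words also occur in Preb. Whether the counting used strand is not given in the sources used here, so reads of the pair cannot be told apart in full. Preb itself, which encodes a factor of protein export from the endoplasmic reticulum, was at 52.2, 60.98 and 60.2 CPM in the CXB strains, inside the BXD range of 49.3 to 70.7, with a log2FC of -0.03 ± 0.07 (adjusted p = 0.96). Slc5a6, a sodium-dependent vitamin transporter gene in the same stretch of chromosome 5 (30950066 to 31048924), was also called (log2FC 0.92 ± 0.21, adjusted p = 0.038), with 20.02, 41.1 and 27.4 CPM in the CXB strains and 9.82 to 30.9 in the BXD strains.

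In all, 6 genes (0.0300% of those tested) were higher in all 3 CXB strains than in every BXD strain. Rarres1, Abhd1 and the uncharacterized 2810021J22Rik were called. The last was at 14.1, 11.98 and 13.9 CPM in CXB6/ByJ, CXB11/HiAJ and CXB13/HiAJ, at 4.99 to 9.98 CPM in the BXD strains and at 18.05 CPM in BALB/cJ (log2FC 0.88 ± 0.14, adjusted p = 0.00025). The other 3 did not pass the test: Efr3a had an adjusted p of 0.059, Fndc10 of 0.092 and Fam183b of 0.26. Cage1 (log2FC 0.85 ± 0.14, adjusted p = 0.00043) had 3.86, 4.12 and 4.74 CPM in the same strain order against at most 3.88 in a BXD strain, so CXB6/ByJ touched the BXD range.

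As many as 6 genes (0.0300% of those tested) were lower in all 3 CXB strains than in every BXD strain, and all of them were called: Ccdc122, Lacc1, B230217C12Rik, Msantd1, Gm20878 and Gm12216. Gm12216, for example, was at 2, 2.44 and 2.17 CPM in CXB6/ByJ, CXB11/HiAJ and CXB13/HiAJ and at 1.53 CPM in BALB/cJ, with a BXD range of 3.62 to 9.12 (log2FC -1.37 ± 0.19, adjusted p = 9.7e-06). Ccdc122 and Lacc1 form a divergent pair on chromosome 14. Lacc1, which encodes a purine-metabolizing enzyme of macrophages, was at 10.1 CPM in CXB6/ByJ, 9.68 in CXB11/HiAJ and 8.11 in CXB13/HiAJ. The BXD strains spanned 13.4 to 32.1 CPM, with a median of 22.8. BALB/cJ was at 10.3 CPM, C57BL/6J at 26.5 and DBA/2J at 25.1. Every CXB strain was therefore at the BALB/cJ level and below every BXD strain (log2FC -1.34 ± 0.22, adjusted p = 0.00044). Ccdc122, a coiled-coil protein gene, was at 3.15, 5.003 and 3.46 CPM in the CXB strains. Its BXD range was 7.67 to 16.5 CPM, median 10.9, and BALB/cJ was at 3.15 CPM. The groups again did not overlap (log2FC -1.59 ± 0.18, adjusted p = 7.4e-08). In both genes the call held with each CXB strain left out and under each of the other alternatives run.

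Lacc1 (chr14:77024200-77036904, minus strand) and Ccdc122 (chr14:77036772-77112257, plus strand) are transcribed away from each other. By these coordinates the genes overlap at their 5′ ends. Of the 31-base words of Ccdc122, 5.12% occur in 1 other gene. As for Abhd1, the use of strand in counting is not given, so reads of the overlap cannot be told apart in full. The annotated RefSeq start sites of both genes are 155 bases apart. Of the 300 bases of the Ccdc122 promoter window (250 before to 50 after the start), 254 also lie in the Lacc1 window. That window is shown because both genes fell together; the capitals mark the bases that both promoter windows hold (RefSeq, GRCm38.p6, chr14:77036522-77036821, plus strand).
Ccdc122 promoter: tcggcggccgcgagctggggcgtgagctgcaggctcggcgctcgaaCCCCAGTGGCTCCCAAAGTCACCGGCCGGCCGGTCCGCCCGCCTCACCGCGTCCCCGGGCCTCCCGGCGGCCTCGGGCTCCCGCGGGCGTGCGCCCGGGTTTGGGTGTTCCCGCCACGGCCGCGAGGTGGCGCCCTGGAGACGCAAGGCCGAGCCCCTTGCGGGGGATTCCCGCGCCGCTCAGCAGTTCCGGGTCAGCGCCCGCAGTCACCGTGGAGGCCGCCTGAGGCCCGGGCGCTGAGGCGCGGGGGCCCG
G and C make up 79% of the window, against a median of 52.7% over 32851 promoters of that length, and 1.44% of those promoters were as rich in G and C. Dnajc15, a co-chaperone of the inner mitochondrial membrane 0.8 Mb further along, moved the other way, as described with the CXB11/HiAJ genes. From Lacc1 to Dnajc15 the stretch holds 6 tested genes, and these 3 were called.

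Ccl27a, a chemokine gene of skin and epithelia, was at 1.20 CPM in CXB6/ByJ, 0.979 in CXB11/HiAJ and 1.82 in CXB13/HiAJ. The BXD strains ranged from 1.80 to 8.08 CPM with a median of 5.36, and BALB/cJ had 1.18 CPM. CXB13/HiAJ and the lowest BXD strain overlapped at that edge. The log2FC was -1.94 ± 0.34 (adjusted p = 0.00082). Without CXB11/HiAJ it was -1.75, with an adjusted p of 0.056. Of the 31-base words of Ccl27a, 56.96% occur in other genes, so how its reads are split is uncertain. Its neighbours Gm20878 and Fam205a4 on chromosome 4 (41769467 to 41971856) were called lower with it. They share 69.04% and 99.95% of their own words with other genes. Whether the neighbours share words with Ccl27a is not given here. Fam205a4 was at or under 0.0174 CPM in the CXB strains and BALB/cJ, which is under the floor, and at up to 0.593 CPM in the BXD strains. Fam205a2, also called lower, had the same values and is the same signal.

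Of the remaining lower genes, Ankrd29 was at 5.86, 12.01 and 6.45 CPM in CXB6/ByJ, CXB11/HiAJ and CXB13/HiAJ, with a BXD range of 10.3 to 40.1 and 2.92 CPM in BALB/cJ (log2FC -1.40 ± 0.28, adjusted p = 0.0091). Apol10b, an apolipoprotein L gene, split the panel: CXB6/ByJ with 2.57 CPM and CXB11/HiAJ with 3.82 CPM lay near BALB/cJ (2.74), whereas CXB13/HiAJ with 12.1 CPM lay near C57BL/6J (11.3) and inside the BXD range of 7.89 to 20.4. The log2FC was -1.13 ± 0.27 (adjusted p = 0.046). Parn, a poly(A)-specific ribonuclease, fell by 0.37 ± 0.08 on the log2 scale (adjusted p = 0.0084), from a BXD median of 32.5 CPM to 23.2, 24.7 and 29.2 CPM. Slco1a1, an organic anion transporter (log2FC -3.61 ± 0.81, adjusted p = 0.026), and Olfr1321, an olfactory receptor gene (-1.23 ± 0.26, adjusted p = 0.019), were under 1 CPM in all CXB strains, with 0.0348, 0.0827 and 0.155 CPM for Slco1a1. For Ankrd29, Apol10b, Parn, Slco1a1 and Olfr1321 the call was lost without CXB6/ByJ and without CXB11/HiAJ, except that Ankrd29 kept it without CXB11/HiAJ (adjusted p = 0.015) and lost it without CXB13/HiAJ (log2FC -1.29, adjusted p = 0.096). The log2FC of Parn was -0.34 without CXB6/ByJ and -0.32 without CXB11/HiAJ, and that of Slco1a1 -3.25 and -3.39, whereas that of Apol10b moved to -0.78 and -0.84 and to -2.06 without CXB13/HiAJ.

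**Figure D2:**
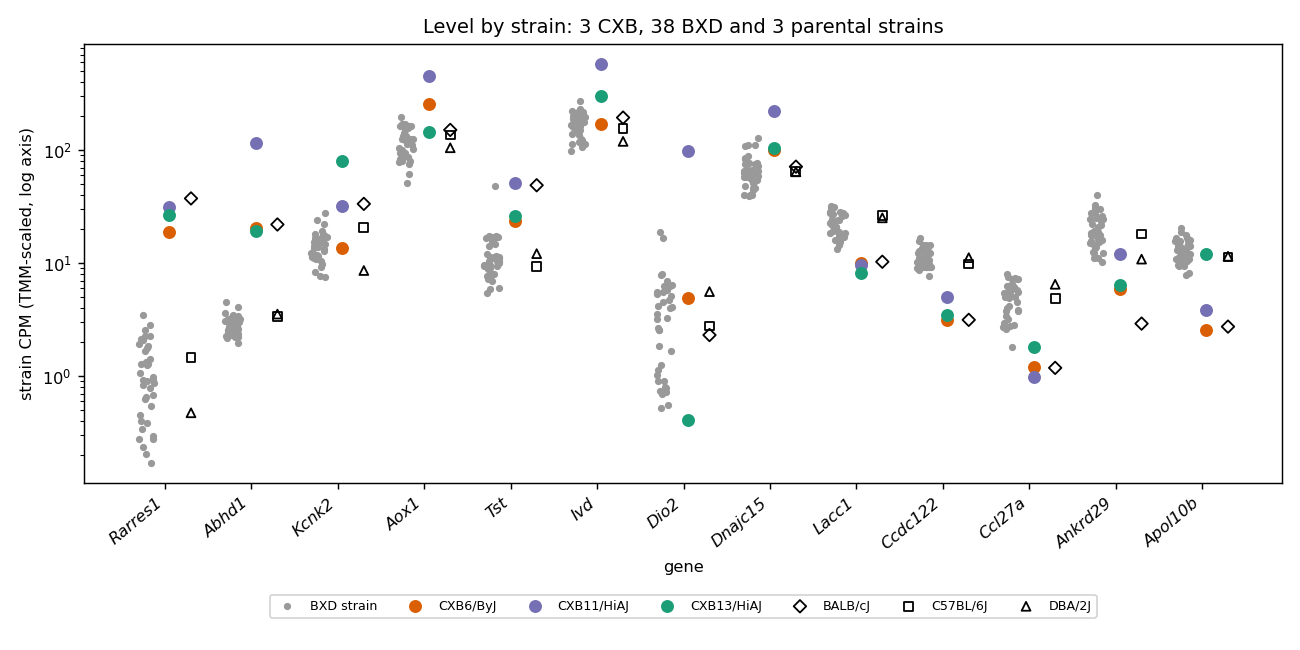
TMM-scaled CPM per strain on a log axis for 13 called genes: grey points are the 38 BXD strains, coloured points the 3 CXB strains and open symbols the 3 parental strains. Rarres1 and Abhd1 in CXB lie above and Lacc1 and Ccdc122 below all BXD strains, with BALB/cJ at or near the CXB level; for Dio2 the CXB strains differ from each other by more than the BXD range.

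A second group consisted of processed pseudogenes and other copies that are almost identical in sequence to an abundant gene. Of the 60 called genes with a transcript in the annotation, 20 shared at least 50% of their 31-base words with another gene and 33 shared under 10%. The 20 include 5 identical Rpl35a copies, each counted. The same share over all genes tested was not counted, so these numbers describe the called genes only. In 3 of the pairs the copy and the gene it resembles differ as shown, in the 90 bases around the difference, with the differing bases in capitals (GENCODE M21, GRCm38, in the direction of transcription).
Gm15772: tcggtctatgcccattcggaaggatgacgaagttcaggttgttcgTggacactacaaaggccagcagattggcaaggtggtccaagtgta
Rpl26: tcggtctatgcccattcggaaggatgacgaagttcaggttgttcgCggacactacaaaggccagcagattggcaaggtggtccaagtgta
Rpl35a-ps3: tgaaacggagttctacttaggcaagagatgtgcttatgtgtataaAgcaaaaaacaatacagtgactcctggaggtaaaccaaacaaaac
Rpl35a: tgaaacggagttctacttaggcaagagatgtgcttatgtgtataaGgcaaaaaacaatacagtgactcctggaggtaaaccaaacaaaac
Gm4366: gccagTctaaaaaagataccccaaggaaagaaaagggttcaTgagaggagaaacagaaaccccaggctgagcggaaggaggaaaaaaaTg
Eef1g: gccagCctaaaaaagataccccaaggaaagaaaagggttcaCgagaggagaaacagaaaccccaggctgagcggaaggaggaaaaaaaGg
Counted from 1 at the 5′ end of the copy, with the base of the partner gene first, the differences over the whole aligned length were C177T and T288C for Gm15772 (438 bases), G156A for Rpl35a-ps3 (333 bases), and G274A, C704T, C740T, G787T and G1249A for Gm4366 (1342 bases). Each of these 3 copies is an intronless, single-exon feature in another place than its partner: Gm15772 at chr5:3236431-3236868, Rpl35a-ps3 at chr17:29136972-29137304 and Gm4366 at chr7:116824510-116825851.

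Gm15772 gave the largest fold change of all called genes. It was at 242 CPM in CXB6/ByJ, 0.289 in CXB11/HiAJ and 243 in CXB13/HiAJ. No BXD strain was above 1.07 CPM, BALB/cJ was at 243 CPM, and C57BL/6J and DBA/2J were at 0.297 and 0.285 CPM. CXB6/ByJ and CXB13/HiAJ therefore matched BALB/cJ, and CXB11/HiAJ matched C57BL/6J (log2FC 9.25 ± 0.43, adjusted p = 8.1e-20). Rpl26, a protein of the large ribosomal subunit and the gene that Gm15772 resembles, ran the other way, with 101, 305 and 112 CPM in the same strains. It ranged from 237 to 443 CPM in the BXD strains and was at 105 CPM in BALB/cJ. Rpl26 was called lower (log2FC -0.97 ± 0.22, adjusted p = 0.026). Without CXB11/HiAJ its log2FC was -1.63, and the call was lost at -0.73 both without CXB6/ByJ (adjusted p = 0.21) and without CXB13/HiAJ (adjusted p = 0.35). The sum of the pair was 343, 305 and 354 CPM in the CXB strains, within the BXD range of 237 to 444 CPM. The counts do not show from which locus the reads came, so the fold changes of both are uncertain as changes of either gene.

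The same exchange appeared in other pairs. Rpl35a-ps2, Rpl35a-ps3, Rpl35a-ps4, Rpl35a-ps6 and Gm10243 are 5 copies with 1 identical sequence of 333 bases, and their counts were equal in every strain. Together they held 64.8% of the counts of the pair with Rpl35a in CXB6/ByJ, 68.05% in CXB11/HiAJ and 0.268% in CXB13/HiAJ, against 67.2% in BALB/cJ and at most 2.09% in a BXD strain. The summed level of copies and gene was 235, 188 and 256 CPM, within the BXD range of 139 to 318. Gm12191 held 61.96%, 62.4% and 1.47% of its pair with Rpl30 in the CXB strains and 60.3% in BALB/cJ. The pair summed to 238, 194 and 248 CPM, with 153 to 325 CPM in the BXD strains. Gm4366 held 32.9% of its pair with Eef1g, an elongation factor subunit, in CXB13/HiAJ and 29.9% in BALB/cJ, and under 0.1% in CXB6/ByJ and CXB11/HiAJ.

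In CXB11/HiAJ, 11.5% of the pair of Gm14681 and Npm1 (nucleophosmin) and 95.3% of the pair of Gm4737 and Ahcy (adenosylhomocysteinase) fell on the first, against 10.3% and 94.7% in BALB/cJ and at most 0.626% in CXB6/ByJ and CXB13/HiAJ. AC117239.2, which is annotated as protein coding and shares 68.9% of its 31-base words with the chaperonin gene Hspe1, held 46.6%, 47% and 0.229% in CXB6/ByJ, CXB11/HiAJ and CXB13/HiAJ and 41.3% in BALB/cJ (log2FC of AC117239.2 7.38 ± 0.53, adjusted p = 3.5e-13). Gm10039 held 39.3%, 0.276% and 41.9% of its pair with Atp5g1, a subunit of the ATP synthase ring, and 40.8% in BALB/cJ. Hspe1, Rpl35a, Rpl30, Eef1g, Npm1, Ahcy and Atp5g1 were not themselves called, with log2FC from -0.80 to -0.08. In each of these pairs a CXB strain was close to BALB/cJ or close to C57BL/6J, with no value in between.

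**Figure D3:**
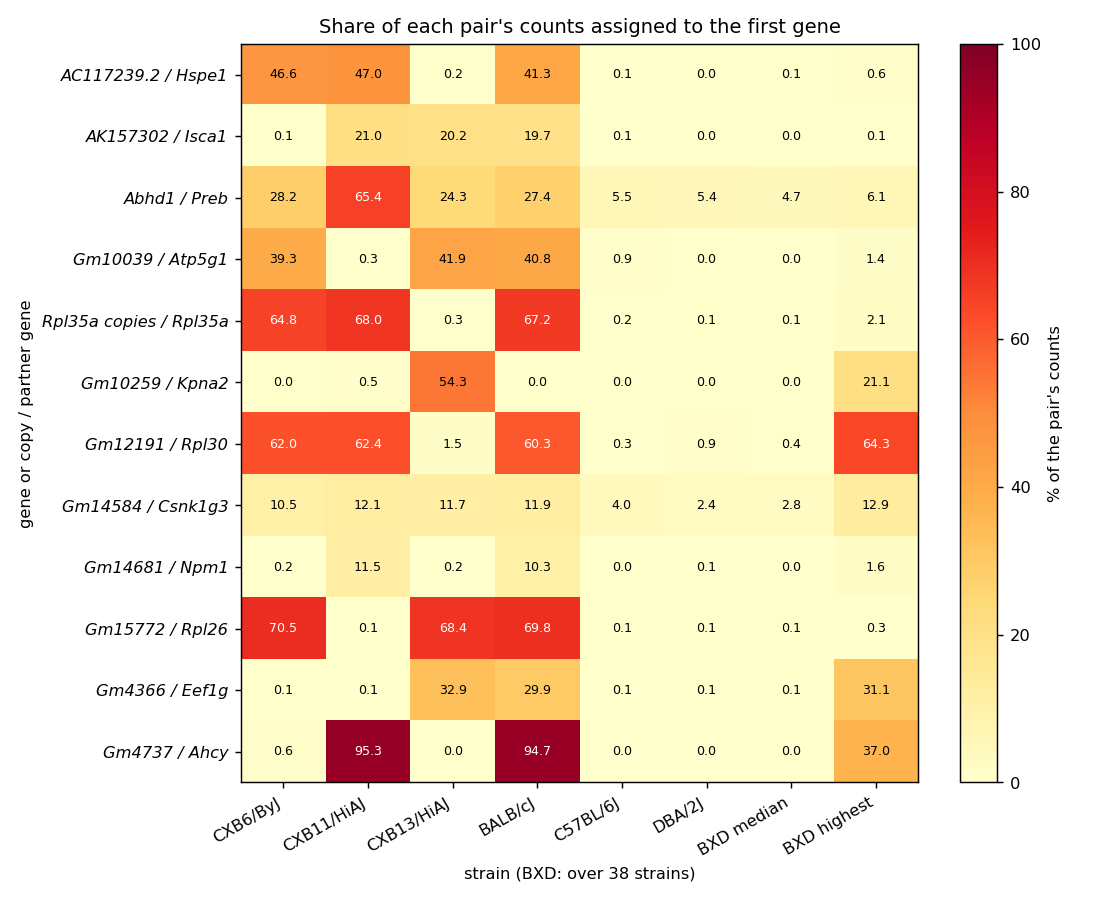
Percentage of the counts of a pair (the first gene and its near-identical partner) that was assigned to the first gene, for each CXB and parental strain and for the median and highest of 38 BXD strains. CXB cells match BALB/cJ or are near 0 in most rows, such as 70.5%, 0.1% and 68.4% for Gm15772 and Rpl26, while Gm10259 and Kpna2, with 54.3% in CXB13/HiAJ and 0% in BALB/cJ, do not.

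Over the whole table, 15 features were present in both BALB/cJ libraries (at least 5 CPM) and absent (under 0.5 CPM) from those of C57BL/6J and DBA/2J. These limits were set after the values were seen, and the counts describe the strains without a test. The 5 identical Rpl35a copies are among the 15 and are 1 signal, which leaves 11 features when they are counted once. At 2 CPM or more, CXB6/ByJ had 5 of the 11, CXB11/HiAJ 5 and CXB13/HiAJ 4. No feature was in all 3 CXB strains, 5 were in a pair of them, 4 were in 1, and 2 (Olfr178 and Gm14741) were in none. The female and the male of a CXB strain fell on the same side of that limit in 33 of 33 comparisons, so the presence of a feature went with the strain and not with the mouse. Of the 11, 6 were called. Ifi44l, an interferon-stimulated gene, was at 10.3 CPM in CXB6/ByJ and 9.04 in BALB/cJ and at or under 0.0776 CPM in every other CXB and BXD strain, and was left out by the filter on low counts.

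Features seen in DBA/2J alone gave the opposite picture. All 11 of them were absent from each CXB strain, and the BXD strains held between 0 and 8 of them, with a median of 5. Of the 26 features shared by BALB/cJ and DBA/2J and absent from C57BL/6J, with identical ones counted once, CXB6/ByJ held 8, CXB11/HiAJ 4 and CXB13/HiAJ 12, and a BXD strain between 4 and 21. Of the BXD strains, 4 held up to 2 of the BALB/cJ features each: BXD6/TyJ with Gm4366 at 74.6 CPM, BXD36/TyJ with Gm4737 at 9.56 CPM, BXD27/TyJ with Gm14681 at 6.997 CPM and Gm4737 at 2.84 CPM, and BXD15/TyJ with Gm14681 at 3.33 CPM. In BXD6/TyJ, Gm12191 also reached 128 CPM. Without these 4 strains 67 genes were called, 57 of them among the 62.

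The third group rested on CXB11/HiAJ. Dio2, the deiodinase that activates thyroid hormone, was at 98 CPM in CXB11/HiAJ on the strain scale, and on the library scale at 92.1 CPM in the female and 90.8 CPM in the male. CXB6/ByJ had 4.92 CPM and CXB13/HiAJ 0.413, the BXD strains ranged from 0.526 to 18.8, and no parent was above 5.60 CPM. CXB11/HiAJ was thus above and CXB13/HiAJ below all BXD strains. The log2FC of 3.04 ± 0.68 (adjusted p = 0.027) became -0.61 (adjusted p = 1) without CXB11/HiAJ. Ucp1, the uncoupling protein of thermogenic adipocytes, was at 10.99, 10.4 and 25.03 CPM in the CXB strains, inside the BXD range of 0 to 1397 CPM. Over the list of 14 brown and beige genes, the median difference of CXB11/HiAJ from the BXD mean was 0.67 (log2 scale). It was -0.30 in CXB6/ByJ and 0.26 in CXB13/HiAJ. The list summed to 560 CPM in CXB11/HiAJ, with 122 to 2724 CPM in the BXD strains and a BXD median of 247.

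Several metabolic genes had the same profile of a high CXB11/HiAJ. Enzymes of branched-chain amino acid breakdown were among them: Ivd, the isovaleryl-CoA dehydrogenase, was at 170, 578 and 301 CPM in CXB6/ByJ, CXB11/HiAJ and CXB13/HiAJ, with at most 274 in a BXD strain (log2FC 0.97 ± 0.20, adjusted p = 0.0084). Bcat2, the mitochondrial aminotransferase of that route, was at 80.6, 311 and 118 CPM with a BXD maximum of 149 (0.96 ± 0.21, adjusted p = 0.025). CXB11/HiAJ was above every BXD strain in both genes, and CXB6/ByJ was within the BXD range in both.

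Carriers and enzymes of mitochondria followed. Slc25a10, the dicarboxylate carrier, was at 172, 582 and 210 CPM, with a BXD range of 53.5 to 268 (log2FC 1.09 ± 0.26, adjusted p = 0.043). Gldc, of the glycine cleavage system, was at 6.05, 29.1 and 8.23 CPM, with a BXD range of 2.01 to 8.89 (1.13 ± 0.24, adjusted p = 0.018). Dnajc15 was at 99.5, 223 and 105 CPM, with a BXD range of 38.96 to 128 (1.05 ± 0.22, adjusted p = 0.019). In each of these genes CXB11/HiAJ alone was outside the BXD range.

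Ppp1r1a, an inhibitor of protein phosphatase 1, was at 42.6, 147 and 55.4 CPM against a BXD range of 9.18 to 61.4 (log2FC 1.46 ± 0.33, adjusted p = 0.028). Mup2, a major urinary protein gene, was at 1.72, 27.6 and 2.92 CPM against 0 to 5.33 (3.37 ± 0.77, adjusted p = 0.029), and 55.1% of its 31-base words occur in Mup22.

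Tst, the mitochondrial rhodanese, was at 23.5, 50.7 and 26.03 CPM in the CXB strains, 48.8 in BALB/cJ, 9.37 in C57BL/6J and 12.1 in DBA/2J. The BXD strains had a median of 10.4 CPM; BXD15/TyJ was at 48.3 CPM and the next, BXD50/RwwJ, at 17.4. All 3 CXB strains were thus above every BXD strain but BXD15/TyJ, 1 of the 4 strains with BALB/cJ features. The log2FC was 1.41 ± 0.31 (adjusted p = 0.023), and without these 4 strains it was 1.56 (adjusted p = 0.00015).

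Aox1, the aldehyde oxidase, was at 254, 452 and 144 CPM in the CXB strains. The BXD range was 50.7 to 195 CPM with a median of 116, and the parents had 105 to 151 CPM. CXB6/ByJ and CXB11/HiAJ were above all BXD strains, and CXB13/HiAJ was inside. In the CXB males Aox1 was at 431, 486 and 191 CPM, with 71.8 to 229 CPM in BXD males, and in the CXB females at 78.99, 278 and 99.3 CPM, with 32.7 to 167 CPM in BXD females. The log2FC was 1.20 ± 0.23 (adjusted p = 0.0038) over strains, 1.46 (adjusted p = 1.9e-05) in males and 0.72 (adjusted p = 0.63) in females.

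Without CXB11/HiAJ the adjusted p of Dio2, Ivd, Bcat2, Slc25a10, Gldc, Dnajc15, Ppp1r1a, Mup2, Tst, Aox1 and Slc5a6 was between 0.92 and 1, and the log2FC fell to 0.46 for Ivd, 0.29 for Bcat2, 0.38 for Slc25a10, 0.25 for Gldc, 0.62 for Dnajc15, 0.80 for Ppp1r1a, 1.14 for Mup2, 1.07 for Tst and 0.75 for Aox1. With that strain left out 44 genes were called, 33 of them among the 62. Of the 47 higher genes 27 kept their call and of the 15 lower genes 6 did. Without CXB6/ByJ 96 genes were called and 43 of the 62 kept their call, and without CXB13/HiAJ these numbers were 79 and 48. Leaving out only the male CXB11/HiAJ library gave 40 genes, 36 of them among the 62. The part of the depth and of the mitochondrial share of CXB11/HiAJ in these results was not tested.

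**Figure D4:**
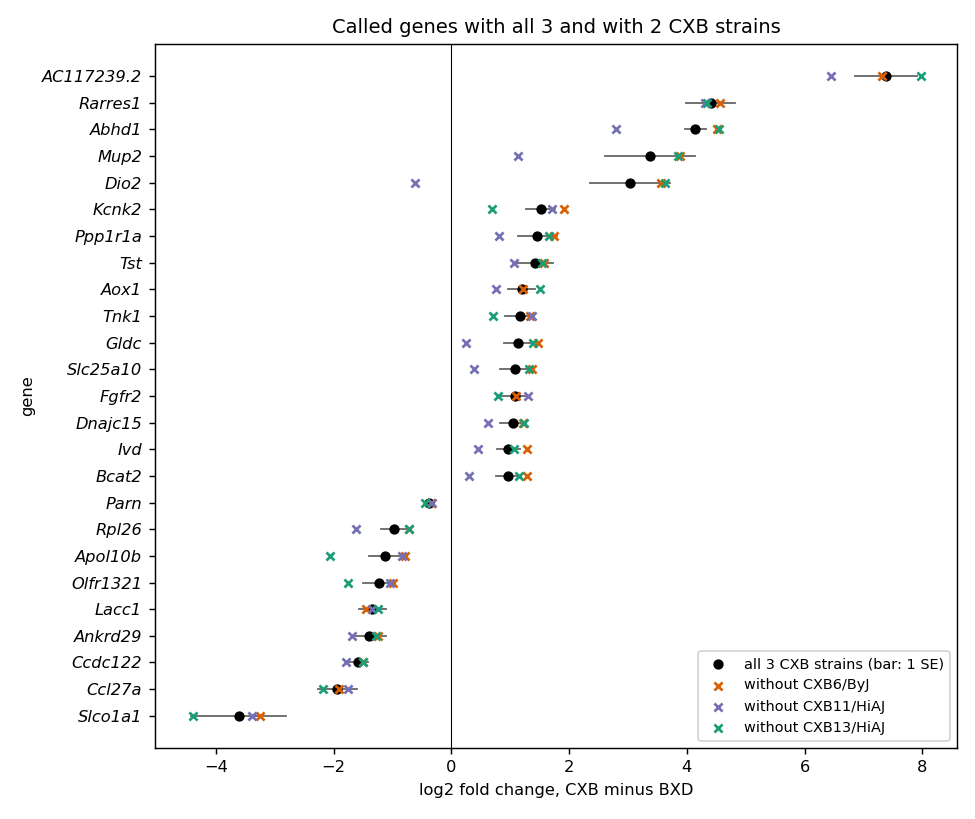
Log2 fold change (CXB minus BXD) of the named genes called, with bars of 1 SE, for all 3 CXB strains (black) and with 1 CXB strain left out (coloured crosses). Rarres1, Ccdc122 and Lacc1 change little, whereas Dio2 moves from 3.04 to -0.61 without CXB11/HiAJ and Kcnk2 from 1.52 to 0.68 without CXB13/HiAJ.

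Other calls rested on CXB13/HiAJ or CXB6/ByJ. Kcnk2, the background potassium channel TREK-1, was at 13.7 CPM in CXB6/ByJ, 32.1 in CXB11/HiAJ and 79.3 in CXB13/HiAJ, and both mice of CXB13/HiAJ were high (62.4 CPM in the female and 95.8 in the male). The BXD strains ranged from 7.56 to 27.7 CPM and BALB/cJ had 33.4. CXB6/ByJ lay at the BXD median of 13.7 CPM and the other CXB strains above every BXD strain (log2FC 1.52 ± 0.24, adjusted p = 0.00022). Without CXB13/HiAJ the log2FC was 0.68 and the adjusted p 0.6. Gspt2, a translation termination factor gene on the X chromosome, was likewise within the BXD range in CXB6/ByJ alone: 4.43, 15.5 and 13.6 CPM in the CXB strains and 3.88 to 11.3 in the BXD strains (log2FC 1.04 ± 0.20, adjusted p = 0.0048). The call was lost without CXB11/HiAJ (0.76, adjusted p = 0.52) and without CXB13/HiAJ (0.89, adjusted p = 0.13).

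Fgfr2, a fibroblast growth factor receptor, and Tnk1, a non-receptor tyrosine kinase, were highest in the CXB13/HiAJ female. Fgfr2 was at 120, 56.1 and 175 CPM in the females of CXB6/ByJ, CXB11/HiAJ and CXB13/HiAJ and at 15.8, 24.9 and 24.97 CPM in the males, with BXD ranges of 20.2 to 98.7 in females and 8.10 to 25.7 in males. Tnk1 was at 13.4, 6.73 and 27.4 CPM in the same females, with 3.66 to 14.8 CPM in BXD females, and at 1.02, 4.56 and 2.80 CPM in the males, with 1.12 to 3.86 CPM in BXD males. The CXB11/HiAJ female was inside the BXD range in both genes. Among males, the Tnk1 level of CXB6/ByJ was below and that of CXB11/HiAJ above all BXD values. The strain fit gave a log2FC of 1.07 ± 0.24 (adjusted p = 0.027) for Fgfr2 and 1.16 ± 0.24 (adjusted p = 0.014) for Tnk1, and without CXB13/HiAJ the adjusted p was 0.48 and 0.61. Neither gene was called within 1 sex. In females the log2FC was 0.81 for Fgfr2 (adjusted p = 0.53) and 1.05 for Tnk1 (adjusted p = 0.27). In males it was 0.76 (adjusted p = 0.080) and 0.43 (adjusted p = 0.47). Each of these was below the log2FC of the strain fit for that gene. Without the male CXB11/HiAJ library the adjusted p was 0.35 for Fgfr2 and 0.20 for Tnk1. The 9 mammary epithelial markers, such as Krt8 and Epcam, moved with these genes: they summed to 870 CPM in the CXB13/HiAJ female, 624 in the CXB6/ByJ female and 212 in the CXB11/HiAJ female, with 81.2 to 1389 CPM in BXD females and at most 8.01 CPM in CXB males. Their part in the Fgfr2 and Tnk1 results was not tested. In bulk tissue a difference in the number of such cells and a difference in RNA per cell cannot be told apart.

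A few called genes came from 1 library. Ctsr and Ctsj, neighbouring cathepsin genes of the placenta, were at 59.4 and 27.3 CPM in the CXB6/ByJ female and at or under 0.689 CPM in the other 5 CXB libraries. Ighe, the epsilon heavy chain of antibodies, was at 21.4 CPM in that female and under 1 CPM in the others. The same female had 1509 CPM of the 12 B and T lymphocyte markers, against 9.85 to 625 CPM in the other CXB libraries and 10.7 to 2037 CPM in BXD females. Htr4, a serotonin receptor gene, was at 9.91 CPM in the CXB13/HiAJ female and at or under 0.0811 CPM in the other CXB libraries.

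Gene lists of adipose function were then examined by the number of members that differed and by the median log2FC, beside the background of all genes. At an unadjusted p under 0.05, 5.03% of all genes were higher in CXB and 2.93% were lower. The 13 mitochondrially encoded genes had a median log2FC of 0.84, and 10 of them were higher at that level, with none passing the adjusted threshold. Without the male CXB11/HiAJ library alone, the median was 0.28 and 1 of the 13 was higher. The level of mt-Co1, a subunit of cytochrome c oxidase, was at 21810 CPM in CXB6/ByJ, 77387 in CXB11/HiAJ and 32117 in CXB13/HiAJ, with 11728 to 47314 CPM in the BXD strains (log2FC 0.86 ± 0.29, adjusted p = 0.33). CXB11/HiAJ was the only CXB strain beyond the BXD range.

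Nuclear subunits of the respiratory chain had the same order of strains. Of 36 complex I subunits all had a positive log2FC, with a median of 0.41, and 13 were higher at an unadjusted p under 0.05. Of 39 subunits of complexes II to V, 37 were positive, the median was 0.47 and 21 were higher. Atp5b, the beta subunit of ATP synthase, was at 1093, 2799 and 1439 CPM in the CXB strains with a BXD range of 661 to 2253 (log2FC 0.55 ± 0.22, adjusted p = 0.49). None of the 75 subunits passed the adjusted threshold. Without the male CXB11/HiAJ library, 4 complex I subunits (median 0.33) and 2 of complexes II to V (0.35) were higher. Without CXB11/HiAJ the medians were 0.00 for the mitochondrially encoded genes, 0.04 for complex I and 0.10 for complexes II to V, and no member of the 3 lists was higher at an unadjusted p under 0.05. The median difference of mitochondrially encoded genes from the BXD mean was -0.10 in CXB6/ByJ, 1.83 in CXB11/HiAJ and 0.31 in CXB13/HiAJ (log2 scale). In females alone the median log2FC was 0.18 for the mitochondrially encoded genes, 0.27 for complex I and 0.29 for complexes II to V. In males alone these medians were 1.09, 0.55 and 0.62.

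Lipid genes followed. The 24 genes of fatty acid uptake and oxidation all had a positive log2FC, with a median of 0.34, 5 were higher at an unadjusted p under 0.05, and the median was -0.08 without CXB11/HiAJ and 0.18 without its male library. Medians were 0.32 for de novo lipogenesis (3 of 19 higher), 0.32 for triglyceride synthesis (3 of 12), 0.24 for lipolysis and the lipid droplet (1 of 15), 0.14 for sterol synthesis (4 of 22 higher and 1 lower) and 0.10 for insulin signalling and glucose uptake (1 of 13). Without CXB11/HiAJ they were 0.21, 0.11, 0.01, -0.24 and 0.06 in that order, so only that of sterol synthesis changed sign. For de novo lipogenesis, CXB13/HiAJ (median difference 0.96) was farther from the BXD mean than CXB11/HiAJ (0.75). Dgat1, which forms triglycerides from diglycerides, was at 122, 313 and 184 CPM in the CXB strains and 57.5 to 219 in the BXD strains (log2FC 0.71 ± 0.23, adjusted p = 0.28). No gene of these 6 lists was called. In females alone the medians were -0.002 for fatty acid uptake and oxidation, -0.03 for de novo lipogenesis and -0.0004 for triglyceride synthesis. In males alone these were 0.61, 0.63 and 0.49. For lipolysis, sterol synthesis and insulin signalling they were 0.11, 0.04 and 0.06 in females and 0.37, 0.28 and 0.15 in males. On the log2(TPM + 1) scale the median of all genes was -0.18. Relative to it, the medians were 0.35 for de novo lipogenesis, 0.15 for fatty acid oxidation and for triglyceride synthesis, 0.06 for lipolysis and for sterol synthesis and 0.00 for insulin signalling, with 0.48 for the mitochondrially encoded genes, 0.23 for complex I and 0.26 for complexes II to V.

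Among 31 genes of glutathione and xenobiotic metabolism 7 were higher at an unadjusted p under 0.05, with a median of 0.30, and Aox1 was called. Without CXB11/HiAJ the median of this list was 0.15 and 2 were higher. Without its male library alone these values were 0.23 and 8. Cyp2e1, a cytochrome P450, was at 574, 3459 and 908 CPM in the CXB strains, with a BXD range of 7.25 to 1551 (log2FC 1.96 ± 0.62, adjusted p = 0.28). Of 12 adipocyte markers 10 were positive, with a median of 0.29; the resistin gene Retn came nearest to the threshold, with 506, 1359 and 875 CPM in the CXB strains and 164 to 742 in the BXD strains (log2FC 1.13 ± 0.29, adjusted p = 0.081). Summed adipocyte markers in CXB11/HiAJ were 49640 CPM, above the highest BXD strain at 46202 CPM, and were inside the BXD range in CXB6/ByJ and CXB13/HiAJ. The median of the adipocyte markers was 0.01 without CXB11/HiAJ and 0.29 without its male library alone. Their part in the CXB11/HiAJ results was not tested. In the list of 14 brown and beige genes Dio2 was called and the median was -0.00. This median was -0.70 without CXB11/HiAJ and -0.37 without its male library. It was -0.69 in females alone and 0.24 in males alone.

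The remaining lists had no called member. Medians were -0.13 for adipokines and fat expansion genes, 0.09 for the circadian clock, -0.26 for creatine genes, -0.21 for collagens, -0.18 for complement, -0.23 for acute phase genes, -0.30 for the glucocorticoid axis, -0.22 for immediate early genes and -0.06 for histocompatibility H2 genes. Of 41 interferon-stimulated genes 32 were negative, with a median of -0.24; 5 were lower and 1, Ifi27l2a, was higher at an unadjusted p under 0.05. For cell type markers the medians were 0.74 for mammary epithelium, -0.06 for B and T lymphocytes, -0.40 for macrophages, -0.17 for endothelium, -0.25 for progenitors and -2.88 for skeletal muscle. The mammary median, positive over strains, was -0.06 in females alone and -0.42 in males alone. The lymphocyte and endothelial medians had opposite signs in the sexes, with 0.81 and -0.38 in females alone and -4.60 and 0.07 in males alone. So did the medians of adipokines and fat expansion, the circadian clock, collagens and H2 genes. They were -0.32, -0.08, -0.68 and 0.27 in females alone and 0.15, 0.21, 0.05 and -0.76 in males alone. Skeletal muscle markers summed to 25.9, 206 and 8.66 CPM in the CXB strains, and to 7.28 to 13612 CPM in the BXD strains with a median of 26.3, so the CXB values were inside the BXD range; on the log2(TPM + 1) scale the muscle median was -0.01, which is 0.16 above that of all genes. Summed macrophage markers, a list that holds the adipocyte-expressed Lpl, were 12411, 26239 and 11386 CPM, and CXB11/HiAJ was above the highest BXD strain at 23257 CPM although the list's median log2FC was negative.

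**Figure D5:**
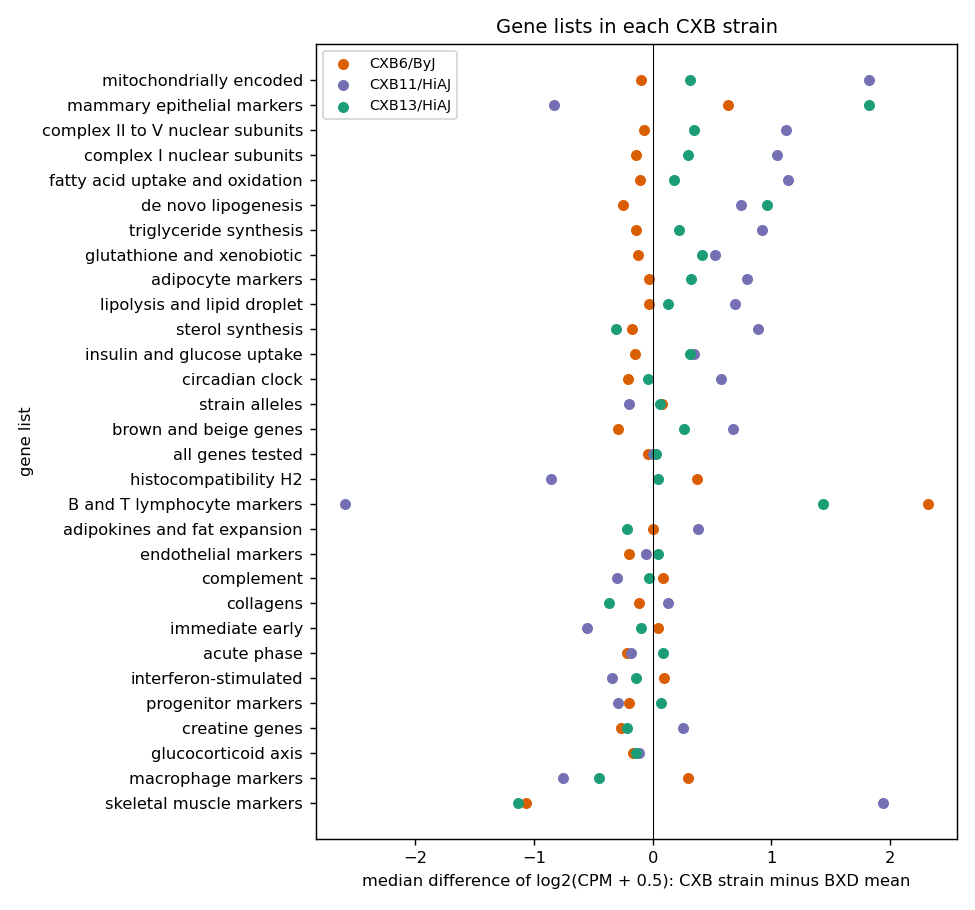
For each gene list, the median over its genes of the difference of log2(CPM + 0.5) between a CXB strain and the mean of the 38 BXD strains; lists are ordered by the median log2 fold change of the strain fit. CXB11/HiAJ is highest in the respiratory chain lists (1.83 for mitochondrially encoded genes), while CXB6/ByJ stays near 0 in most metabolic lists.

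A list of 36 genes known for natural alleles among inbred mice was examined separately, with 34 rows tested. None was called, and 2 were higher and 3 lower in CXB at an unadjusted p under 0.05. H2-Ea-ps, a class II histocompatibility gene known to be silent in the b haplotype of C57BL/6, was at or under 0.0688 CPM in all 3 CXB strains, as in C57BL/6J (0.0524 CPM), whereas BALB/cJ had 378 CPM, DBA/2J 276 and the BXD strains 0 to 504. Its CXB and BXD values overlapped at the low end (adjusted p = 0.49). Alad, a heme synthesis enzyme known for copy number differences, was at 61.6, 125 and 108 CPM in the CXB strains, 60.3 in BALB/cJ and 23.1 in C57BL/6J, with a BXD range of 17.6 to 107 (0.98 ± 0.38, adjusted p = 0.46). Gabra2, a GABA receptor subunit, was at 1.03, 0.910 and 1.36 CPM, with a BXD range of 0.817 to 4.84 (-0.72 ± 0.31, adjusted p = 0.53), and Ly6a, a surface protein of progenitors, was at 81.7, 79.9 and 141 CPM, with 88.3 to 324 in the BXD strains (-0.47 ± 0.22, adjusted p = 0.61).

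Genes at which substrains are known to differ could be compared with the deposited J parents. Zhx2, a transcriptional repressor of which BALB/cJ is known to carry a low-expression allele that other BALB/c substrains lack, was at 5.18 CPM in BALB/cJ and at 36.8, 44.2 and 46.02 CPM in the CXB strains, within the BXD range of 31.7 to 48.5. At this gene no CXB strain resembled the BALB/cJ library. Nnt, the mitochondrial transhydrogenase that is disrupted in C57BL/6J, was listed under 2 gene identifiers. The first (ENSMUSG00000116207) was at 24.1, 18.8 and 33.5 CPM in the CXB strains, 7.81 in C57BL/6J, 29.2 in BALB/cJ and 10.4 in DBA/2J, with 3.67 to 28.1 in the BXD strains (log2FC 0.83 ± 0.39, adjusted p = 0.6). The second was at 9.37, 9.88 and 12.8 CPM against 2.50 to 15.7 (0.43 ± 0.29, adjusted p = 0.77). How reads are split between the identifiers is uncertain.

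Ifi202b, an interferon-inducible gene absent from C57BL/6J here (0 CPM), divided the CXB strains, with 17.7 CPM in CXB6/ByJ, 0.0138 in CXB11/HiAJ and 16.1 in CXB13/HiAJ, and 13.7 in BALB/cJ. It spanned 0 to 116 CPM in the BXD strains. The remaining tested genes of that list, which included Wdfy1, Ide, Entpd4, Nlrp1b, Hc, Gpnmb, Mx1, Klra8, Apoa2 and Cep290, all had an unadjusted p above 0.05.

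Finally, the difference between females and males was compared between the panels within strains, in the 58 libraries of the 29 strains that had both sexes. At an adjusted p under 0.05 edgeR called 0 of 19029 genes, and 1954 genes, or 10.3%, had an unadjusted p under 0.05; DESeq2 called 14 genes, 10 with a positive and 4 with a negative term. Without CXB6/ByJ 561 genes had an unadjusted p under 0.05, without CXB13/HiAJ 1369 and without CXB11/HiAJ 3553, and edgeR called none in any of these fits. On simulated counts, checked over 4675 genes, this test found 62 of 100 genes given a difference of 1 on the log2 scale and 84 of 100 given 2.

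Among the lists, 15 of 35 histocompatibility H2 genes had a larger female-minus-male difference in CXB at an unadjusted p under 0.05, and 9 of 18 collagens a smaller one. Other lists had such members too. The difference was smaller in 6 of 24 fatty acid genes and 4 of 11 progenitor markers, and larger in 3 of 12 lymphocyte markers. Over all genes the share was 10.3% in either direction, and the share by direction was not counted. H2-Q6, a class Ib gene, was at 231, 90.5 and 181 CPM in the females of CXB6/ByJ, CXB11/HiAJ and CXB13/HiAJ and at 64.4, 53.3 and 78.2 CPM in the males. In BXD it was at 73.5 to 250 CPM in females and 40.8 to 227 in males. The term was 1.22 ± 0.33 on the log2 scale (adjusted p = 0.47). The lymphocyte markers moved with it: the CXB6/ByJ and CXB13/HiAJ females had 1509 and 625 CPM and the males of these strains 12.2 and 9.85 CPM. Their part in the H2 values was not tested.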

How the data were processed

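The study sequenced poly(A)-selected RNA of subcutaneous adipose tissue as stranded paired-end libraries. The authors pseudoaligned the reads with kallisto 0.46.1 to an Ensembl mouse transcriptome and summed transcripts to genes, and the deposited tables hold estimated counts and TPM for 36558 genes. The 63 libraries of strains outside both panels and their parents were not used here. Of the estimated counts 30.0% were not whole, and counts were rounded before testing. Per-gene fold changes of near-identical copies depend on how kallisto split shared reads.

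Counts of the libraries of each strain were summed, and CXB and BXD strains were compared with edgeR 4.0.16 (R 4.3.3) by the quasi-likelihood test with the share of a strain's counts from its female as covariate, TMM scaling, filterByExpr and Benjamini-Hochberg adjustment, calling genes at an adjusted p under 0.05. CPM are TMM-scaled, and the SE is that of the fitted log2FC. The labels give 1 mouse per strain and sex, so p-values measure the spread between strain sums. In these sums, differences between strains, between mice and between libraries cannot be told apart. A sum weights the deeper library more: 27.2% of the CXB11/HiAJ counts came from its female. The sex-by-panel term was fitted over libraries with strain as the block. Females and males of a strain deviated together (mean correlation 0.419 against -0.015 between strains, 25 of 29 pairs above 0.1, lowest -0.14), and the shared strain in the labels pairs them. On simulated counts, over 19772 genes, the strain test called 59 of 100 genes changed by 1 on the log2 scale, 92 of 100 changed by 2, and 9 unchanged genes. In this simulation and that of the sex-by-panel term, the change was equal in every CXB strain and the changed genes averaged at least 1 CPM. Neither simulation covers differences that split the CXB strains.

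Named genes were the called protein-coding genes with a symbol other than a clone name, a mean of at least 1 CPM and 1 sign in the fits by sex and without each CXB strain, up to 12 per direction by log2FC (12 and 9 were found), plus called genes of the 29 lists and the strain-allele list. Abhd1, 2810021J22Rik, Cage1, Gm12216, Slc5a6, Gspt2, Ivd, Bcat2, Fam205a4, Fam205a2, the pseudogenes and the genes of single libraries were chosen after their values were seen. The members and lists were chosen with earlier results of these data known. Shared sequence was counted as 31-base words in GENCODE M21 transcripts (GRCm38), and 60 of the 62 called genes had a transcript there; the promoter came from RefSeq. Alternatives were DESeq2 1.42.0, limma 3.58.1 on TPM (pseudocounts 1 and 0.1) and with voom, other scalings and filters, and subsets of libraries or strains.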

Additional observations from a re-analysis of the deposited data

How the results depend on the processing

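Of 458 comparisons of 22 named genes with an alternative, 315 kept direction and call, 2 changed sign and the others kept direction only: Dio2 was at -1.41 in strains with both sexes and -0.61 without CXB11/HiAJ. Ccdc122, Lacc1, Rarres1 and AC117239.2 kept their call in every alternative that tested them. The 62 calls of the strain comparison became 138 with DESeq2, 16 against TyJ strains and 85 against RwwJ strains (34 of them among the 62), 29 with at least 10 counts in every strain, 23 in females, 203 in males, 324 with libraries as samples, 115 with limma-voom, 39 and 34 by limma after adding 0.1 and 1 to each TPM value, 105 without the filter, 29 in strains with both sexes and 40 without the male CXB11/HiAJ library. Leaving out 1 CXB strain gave 44 to 96 calls. The cause was not tested. For the sex-by-panel term DESeq2 called 14 genes, and edgeR 0 in every other alternative, with 1141 genes at an unadjusted p under 0.05 when the strain pairing was dropped (no replicate block). With 3 CXB strains a change of 1 on the log2 scale was often missed, and levels under 0.0382 to 0.249 CPM, by library, cannot be told from 0. The alternatives without the male CXB11/HiAJ library and without BXD6/TyJ, BXD15/TyJ, BXD27/TyJ and BXD36/TyJ were chosen after seeing the data.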
